A study of Mus musculus with 24 samples.

Results

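The promoters described here are transcription start sites (TSSs) of protein-coding genes that carried trimethylated lysine 4 of histone H3 (H3K4me3) in 3 kinds of wild-type mouse fibroblasts but had no summit of acetylated lysine 27 (H3K27ac) nearby. A TSS was a member when an H3K4me3 region of every wild-type list overlapped it and no H3K27ac summit of the same cell type lay within 5 kb, in all 3 types. Of 46015 protein-coding TSSs of the mm9 genome, 535 in 334 genes met both conditions. They were 535 of the 21643 TSSs (10891 genes) with H3K4me3 in all 3 wild-type lists. Another 19784 TSSs had H3K27ac within 5 kb in every type (called acetylated here) and 1324 in 1 or 2 types (called mixed). Because measured peaks of the wild-type lists selected the members, everything read from those lists is a description.

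Chromatin immunoprecipitation followed by sequencing (ChIP-seq) had been done on embryonic fibroblasts (MEF, C57BL/6, embryonic day 10 to 13), on fibroblasts grown out of the breast tumours of MMTV-PyMT mice (MMTV-CAF, FVB/NJ, where CAF stands for cancer-associated fibroblast) and on those of day 10 wounds of the back skin (Wound, C57BL/6). The MMTV-PyMT transgene drives a viral oncogene in mammary epithelium. All cells grew in culture after immortalisation with the papillomavirus genes E6 and E7. Wild-type (WT) cells were compared with cells lacking Prrx1, a homeodomain transcription factor of mesenchymal cells. SG cells had received a Cas9 guide RNA against Prrx1, and the study describes a control guide for WT cells. KI marks MEF that were taken to come from mice whose Prrx1 homeodomain is interrupted by lacZ, since the labels do not spell it out. The 4 lists of KI or SG cells (MEF KI and the SG lists of MEF, MMTV-CAF and Wound) are called deleted below, although KI is an insertion.

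Each group had 1 list, so no difference within a fibroblast type has a replicate check. A p-value is given only for SG minus WT over the 3 types as pairs. The 7 H3K27ac lists held 29325 to 61603 summits and the 7 H3K4me3 lists 13125 to 29166 regions. MEF KI stood apart from the others, with the fewest entries for both marks and a median −log10 p of 11.9 for H3K27ac and 9.93 for H3K4me3, against 18.5 and 28.6 in MEF WT. Of 10 fibroblast markers, 9, 8 and 7 had both marks in MEF, MMTV-CAF and Wound WT, while 0 of 6 immune markers had H3K4me3. At most 1 of 8 epithelial markers (Cdh1) and 1 of 6 endothelial markers (Kdr) had H3K4me3. Kdr had both marks in Wound WT, the only marker outside the fibroblast list that did. The Prrx1 gene itself was no member, since its main TSS had both marks in all 7 lists.

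H3K4me3 is placed at promoters by SET1 and MLL complexes, which recognise unmethylated CpG-rich DNA, so the mark can be present at genes that are barely transcribed. H3K27ac is laid down by the acetyltransferases p300 and CBP and is found at active promoters and enhancers. Promoters with H3K4me3 and no H3K27ac include poised genes of development, many of which also carry the Polycomb mark H3K27me3 in embryonic cells. Neither H3K27me3 nor RNA was measured in these files.

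The sequences upstream of a few members show the kind of DNA the mark lay on. Each line gives the 200 bases before the TSS from the mm9 reference, read 5′ to 3′ on the strand of the gene, with every CG dinucleotide in capitals. Gch1 (chr14:47809089-47809288, minus strand) and Rasgef1b (chr5:99681947-99682146, minus strand) are among the members with the highest H3K4me3 fold. Icosl (chr10:77531905-77532104, plus strand) and Map3k5 (chr10:19654078-19654277, plus strand) are among those that had H3K27ac in most deleted lists. Insrr (chr3:87600673-87600872, plus strand) had H3K4me3 in no deleted list, and Rdh12 (chr12:80309701-80309900, plus strand) had few CG for its base content.
Gch1: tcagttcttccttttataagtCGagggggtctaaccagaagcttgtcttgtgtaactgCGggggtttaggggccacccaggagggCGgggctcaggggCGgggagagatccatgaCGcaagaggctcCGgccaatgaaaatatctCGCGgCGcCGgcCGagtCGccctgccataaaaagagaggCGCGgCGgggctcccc
Rasgef1b: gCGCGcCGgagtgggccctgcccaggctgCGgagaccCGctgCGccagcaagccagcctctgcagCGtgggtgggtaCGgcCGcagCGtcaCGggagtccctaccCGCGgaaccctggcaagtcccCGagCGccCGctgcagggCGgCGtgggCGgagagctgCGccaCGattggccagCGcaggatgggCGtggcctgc
Icosl: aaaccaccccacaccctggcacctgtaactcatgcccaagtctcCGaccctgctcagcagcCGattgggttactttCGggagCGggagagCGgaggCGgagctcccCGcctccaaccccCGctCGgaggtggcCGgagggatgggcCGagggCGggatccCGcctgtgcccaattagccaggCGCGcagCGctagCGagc
Map3k5: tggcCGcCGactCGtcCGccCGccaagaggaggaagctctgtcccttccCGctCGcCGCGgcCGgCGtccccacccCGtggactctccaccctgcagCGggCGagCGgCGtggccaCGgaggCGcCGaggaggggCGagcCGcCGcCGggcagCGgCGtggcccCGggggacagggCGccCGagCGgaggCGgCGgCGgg
Insrr: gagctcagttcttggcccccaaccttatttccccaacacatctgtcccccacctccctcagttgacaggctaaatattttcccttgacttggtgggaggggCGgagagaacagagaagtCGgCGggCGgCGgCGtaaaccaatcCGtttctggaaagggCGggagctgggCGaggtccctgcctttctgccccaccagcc
Rdh12: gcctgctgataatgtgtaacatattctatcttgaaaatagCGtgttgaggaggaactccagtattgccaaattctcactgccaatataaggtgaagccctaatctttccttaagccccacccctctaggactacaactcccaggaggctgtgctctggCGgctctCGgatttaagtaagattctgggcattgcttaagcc

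The stretch before Map3k5 held 32 CG, that before Rasgef1b 23, Icosl 17, Gch1 15, Insrr 9 and Rdh12 3. Within 250 bp of the TSS, the median ratio of observed to expected CpG was 0.783 in the members, 0.818 in acetylated TSSs and 0.58 over all protein-coding TSSs. The median GC content was 67.7%, 64.3% and 57.7%. In all, 431 of 535 members (80.6%) had a CpG ratio of at least 0.6 and a GC content of at least 50%, beside 84.6% of acetylated and 47.3% of all TSSs. The members thus lay on CpG-rich DNA about as often as acetylated promoters did, and the median GC content was higher.

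Motif letters were sparse in them. The TATA word TATAAA occurred 50 to 1 bases upstream of 5 members (0.935%), of 0.89% of acetylated and of 2.2% of all TSSs. TAATTA, the core that homeodomain proteins such as Prrx1 can bind, reads the same on both strands and lay within 500 bp of 36 members (6.73%), 7.99% of acetylated and 13.7% of all TSSs. The members also stood further from other genes. Their median distance to the TSS of another gene was 35.7 kb, against 16.2 kb for acetylated TSSs, and their genes were longer, with a median of 32.5 kb against 24.7 kb.

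By gene, 212 of the 334 had 1 member TSS and 122 had several, up to 7 in genes such as Mapt, Mfsd4 and Tcn2. Tcn2 encodes the vitamin B12 carrier transcobalamin. In 175 genes every annotated TSS was a member. Only 18 genes had another TSS that was acetylated or mixed, so 316 (94.6%) had none. TSSs that lie close together share a region: the 535 members sat on 327 distinct H3K4me3 regions in each WT list, and shares over TSSs therefore count some regions more than once. Members lay on 20 chromosomes, 20 of them on X and 0 on Y.

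H3K4me3 was weaker and narrower at the members than at acetylated promoters in every WT list. The median fold over input was 3.41 for MEF (quartiles 2.83 and 4.04), 4.44 for MMTV-CAF (3.39 and 6.05) and 5.32 for Wound (4.52 and 6.56). Acetylated TSSs had medians of 5.81, 10.2 and 8.01. Only 3, 0 and 19 members exceeded the acetylated median in MEF, MMTV-CAF and Wound. Libraries differ in enrichment, so a fold set beside that of another list, here and below, compares single libraries, and the median over all marked TSSs gives the shift they share.

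The median width of the region was 987 bp in MEF, 1002 bp in MMTV-CAF and 1078 bp in Wound, against 2445, 3298 and 2310 bp at acetylated TSSs. No member had a broad region of over 4 kb in any WT list (0 of 535 in each), whereas 11.3%, 33.6% and 11.2% of acetylated TSSs did. The mixed TSSs lay between, with medians of 1404, 1650 and 1331 bp. Across the 535 members, Spearman's rho between WT lists was 0.42 to 0.48 for fold and 0.55 to 0.69 for width. At acetylated TSSs it was 0.13 to 0.63 for fold and 0.81 to 0.87 for width. These values describe TSSs that share regions and are no replicate measure.

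**Figure D1:**
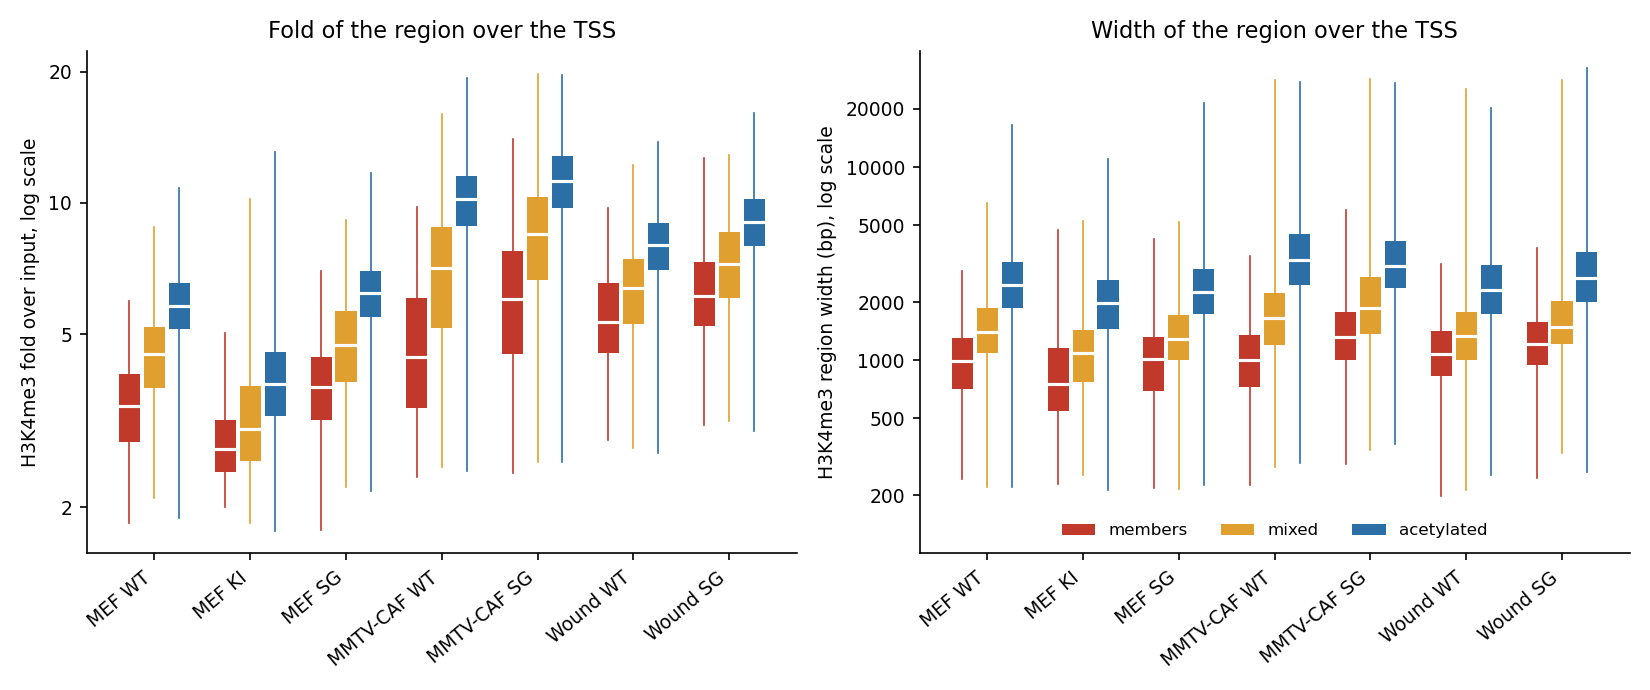
Fold over input (left) and width in bp (right) of the H3K4me3 region over the TSS, on log axes, for members, mixed and acetylated TSSs in the 7 lists; bars span the quartiles, white lines mark medians and thin lines the lowest and highest TSS. Member medians of 3.41, 4.44 and 5.32 fold in the WT lists lay under the acetylated medians of 5.81, 10.2 and 8.01, and only TSSs with a region are drawn, 150 of 535 members in MEF KI.

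The nearest H3K27ac summit was usually far off. Its median distance from a member was 40.1 kb in MEF, 34.3 kb in MMTV-CAF and 41.9 kb in Wound, and 39.6%, 35.7% and 43% of members had none within 50 kb. The members closest to the limit of 5 kb were TSSs of Podxl2 (nearest summit of any type at 5011 bp), Gmpr (5065 bp) and Gpr162 (5150 bp). The marked TSSs that just failed it were another TSS of Gpr162 (4945 bp), Spef1 (4936 bp) and Nkain4 (4888 bp).

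By family, lists of housekeeping genes held no members, and lists of genes of neurons and development held a larger share. The lists were picked by gene symbol and are not complete, so each count is of listed genes only. Over all genes, 334 of the 10891 with H3K4me3 in all 3 WT lists (3.07%) had a member TSS. The share was 0 of 73 for the mitochondrial ribosome, 0 of 77 for the cytosolic ribosome, 0 of 88 for the respiratory chain, 0 of 36 for tRNA synthetases, 0 of 86 for the listed DNA repair genes and 0 of 101 for RNA polymerase and Mediator. The listed matrix and myofibroblast genes gave 0 of 44, replication-dependent histones 0 of 30, listed germline genes 0 of 8 and listed cilium genes 1 of 90 (Ttc38). Members outside the lists, named after their values were seen, include the matrix genes Npnt and Col23a1, the cilium genes Ccdc39 and Kif17, the germ cell gene Ybx2 and Mad2l2, which acts in DNA repair. Odorant and vomeronasal receptors had 0 of 1448 genes with H3K4me3 in all 3 lists, so none could be a member.

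Neuronal channels, receptors and synaptic genes gave 10 of 35 (28.6%), among them the potassium channels Kcna4, Kcnh3 and Kcnj2, the sodium channel Scn1a, the glycine, glutamate and serotonin receptors Glrb, Grik4 and Htr6, and the vesicular glutamate transporter Slc17a7. Secreted developmental signals gave 5 of 22 (22.7%), namely Fgf15, Fgf18, Wnt11, Wnt5b and the Wnt inhibitor Sfrp1. Homeobox genes gave 8 of 60 (13.3%), namely Hmx2, Isl2, Lhx4, Msx3, Nkx3-2, Onecut2, Pax2 and Tlx2, and other developmental transcription factors 4 of 49 (8.16%), Atoh8, Foxo6, Neurog2 and Tbx2. A list of G protein-coupled receptors, mostly orphan ones, gave 5 of 37 (13.5%), protocadherins 1 of 6, solute carriers 7 of 153 (4.58%), genes with zinc finger symbols such as Zfp 6 of 291 (2.06%) and the ubiquitin pathway 4 of 271 (1.48%). Receptors such as Hrh3 and Prokr1 and zinc finger genes such as Casz1 are members outside these lists. The lists were set with earlier results of the data known, and their shares carry no test.

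**Figure D2:**
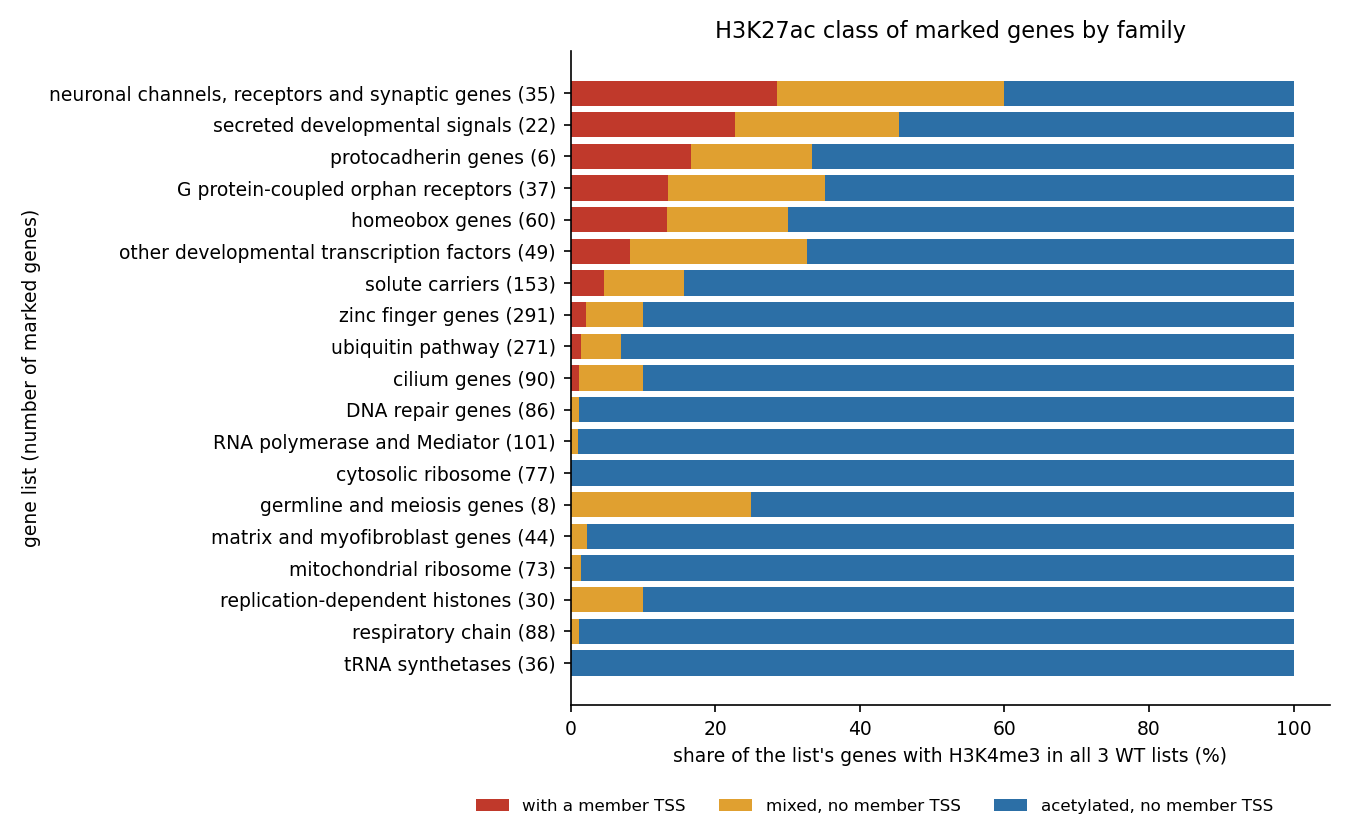
Share, in percent, of each family's genes with H3K4me3 in all 3 WT lists that had a member TSS (red), a mixed TSS (yellow) or only acetylated TSSs (blue), with the number of marked genes in brackets. Members took 10 of 35 neuronal genes and 5 of 22 secreted signals, and 0 of 77 cytosolic ribosome genes.

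In the deleted lists, which the selection did not use, H3K4me3 was listed over fewer members than over marked promoters as a whole. Members and background both had to carry the mark in the WT lists, so any other list could only be lower. In MEF KI, 385 of 535 members (72%, Wilson 95% interval 68 to 75.6) had no H3K4me3 region over the TSS, against 23.3% of all TSSs marked in the 3 WT lists. In MEF SG it was 109 members (20.4%, 17.2 to 24) against 2.39%, in MMTV-CAF SG 88 (16.4%, 13.5 to 19.8) against 1.09%, and in Wound SG 29 (5.42%, 3.8 to 7.68) against 0.753%. The members' share lay above the background in all 4 lists, and it was highest in the KI list, whose regions were fewest. A WT list that the selection did not use also missed some of the mark. Among the 799 TSSs chosen without MEF, the MEF lists had H3K4me3 over 83% with WT, 27.9% with KI and 70.8% with SG cells. Among the 1363 chosen without MMTV-CAF it was 60.5% in WT and 62.8% in SG, and among the 634 chosen without Wound 95.9% and 92.9%. Against these lists MEF KI lay far lower, while SG minus WT was −12.1 points for MEF, 2.35 for MMTV-CAF and −3 for Wound. Taken as 3 pairs by type, the mean was −4.26 ± 7.33 points (SD, n = 3 types; exact sign-flip permutation test, two-sided p = 0.5, where 3 pairs cannot go below 0.25; Benjamini-Hochberg adjusted over 2 tests, 0.5). MEF KI and MEF SG are both set against the same MEF WT lists. The intervals cover counting error over TSSs only. With a fold of at least 4 required in every list, 109 members remained and 7.34% of them had a region in MEF KI, against 28% without that limit. That cut lay above the KI list's own median fold of 3.59, and 35.6% of all TSSs marked at such a fold in WT passed it.

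Members with less H3K4me3 in WT were missed more often. Of members under the median WT fold of their type, 86.6% lacked a region in MEF KI, and the SG shares were 33.6% for MEF, 26.8% for MMTV-CAF and 7.81% for Wound. Of those above it, 57.3%, 7.12%, 6.02% and 3.01% had none. A lower WT fold therefore went with absence in each list, and the comparison was repeated among TSSs within the same range of fold.

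Acetylated TSSs whose WT fold lay between the members' quartiles had no region in 50.8% of cases in MEF KI (326 of 642), 6.54% in MEF SG (42 of 642), 3.29% in MMTV-CAF SG (15 of 456) and 0.924% in Wound SG (27 of 2922). The members within the same quartiles had 73.6%, 17.5%, 16.7% and 4.48%. The members' share was the higher one in all 4 lists, but the range did not match fold within it. Only 0.96%, 0.445% and 3.48% of acetylated TSSs lay below the members' median fold in MEF, MMTV-CAF and Wound WT. Acetylated TSSs within the quartiles therefore leaned to the higher folds, where members were missed less often. No difference beyond fold is read from these shares. The WT fold used here comes from the lists that selected the members, and TSSs share regions, so no interval is read as a test. Width differed between these sets too, and its part in the result was not tested.

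**Figure D3:**
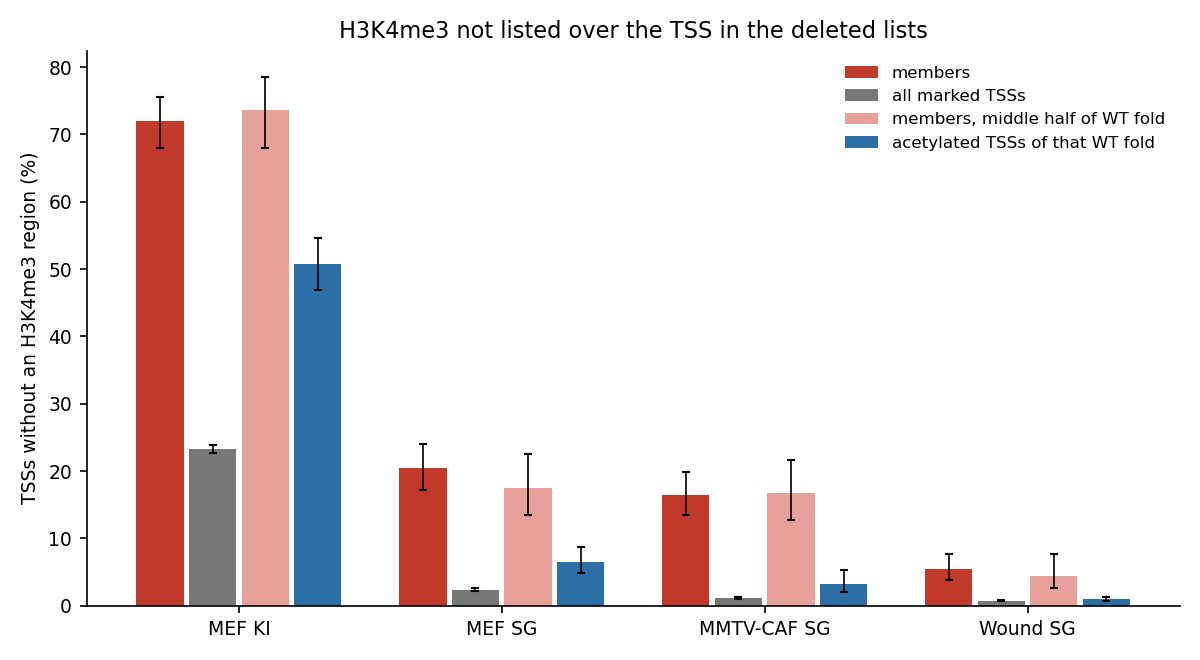
Percentage of TSSs without an H3K4me3 region over them in each deleted list, for members, all TSSs marked in the 3 WT lists, and members and acetylated TSSs with a WT fold between the members' quartiles; error bars are Wilson 95% intervals over TSSs. Members stand at 72%, 20.4%, 16.4% and 5.42%. Between the members' quartiles, members stand at 73.6%, 17.5%, 16.7% and 4.48% and acetylated TSSs at 50.8%, 6.54%, 3.29% and 0.924%. These sets are not matched for fold within that range.

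Some uncovered members had a region beside the TSS. Of the members not covered, 86 of 385 in MEF KI, 43 of 109 in MEF SG, 17 of 88 in MMTV-CAF SG and 25 of 29 in Wound SG still had a region within 1 kb of the TSS. Members with no region even within 1 kb numbered 299 (55.9%) in MEF KI, and among the SG lists 66 (12.3%) for MEF, 71 (13.3%) for MMTV-CAF and 4 (0.748%) for Wound. Over all marked TSSs the shares were 3.8%, 0.707%, 0.712% and 0.143%. Of the uncovered members, 22.3%, 39.4%, 19.3% and 86.2% thus had a region within 1 kb, against 83.7%, 70.5%, 34.7% and 81% of all uncovered marked TSSs. In Wound SG the members' share was near that of all marked TSSs, and in the other lists it was lower.

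Of the members, 6 had H3K4me3 in 0 of the 4 deleted lists, 269 had it in 3 and 120 had it in all 4. The same counts were not made over other marked TSSs, so these are not read as high or low. The 6 genes named for the fewest lists differed in how far away the nearest region lay. Insrr, the insulin receptor-related receptor, had WT folds of 2.24 (MEF), 3.16 (MMTV-CAF) and 3.87 (Wound), with regions of 295, 241 and 494 bp. In the deleted lists its nearest region lay 19540 to 27886 bp away, so no H3K4me3 was listed near the TSS after deletion. Crispld2, a secreted CAP-domain protein, had WT folds of 1.96, 3.79 and 3.75, and its nearest region lay 79662 bp away in MEF KI, 79518 bp in MEF SG, 3649 bp in MMTV-CAF SG and 320 bp in Wound SG.

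Pstpip2, an F-BAR protein of the actin cytoskeleton, had regions close by instead. Its WT folds were 3.59, 7.22 and 7.29 and it was covered in none of the deleted lists. A region lay 112 bp from the TSS in MEF KI, 156 bp in MEF SG, 12 bp in MMTV-CAF SG and 6 bp in Wound SG. The mark was therefore still listed beside the TSS in each deleted list.

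H3K27ac summits within 5 kb of the Pstpip2 TSS appeared in MEF KI (700 bp, −log10 p 14.1), MEF SG (584 bp, 16.1) and MMTV-CAF SG (891 bp, 22.7), but not in Wound SG (18082 bp). Cables1, an adaptor of cyclin-dependent kinases, had a region 216 bp away in MEF KI, 11 bp in MEF SG and 196 bp in Wound SG. Tsc22d3, which encodes the glucocorticoid-induced leucine zipper, had one 972 bp away in MEF KI, 89 bp in MEF SG and 10 bp in MMTV-CAF SG. Rgs3, a regulator of G protein signalling, had one 230, 7 and 87 bp away in MEF KI, MMTV-CAF SG and Wound SG. Tsc22d3 and Rgs3 also have acetylated TSSs elsewhere in the gene.

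Where a member still had a region, the fold ratio was close to that of other promoters in MEF SG and Wound SG. The median log2 ratio of deleted to WT fold was −0.48 at the 150 members covered in MEF KI, 0.08 at 426 in MEF SG, 0.29 at 447 in MMTV-CAF SG and 0.17 at 506 in Wound SG. Over all marked TSSs it was −0.61, 0.08, 0.14 and 0.18. The members' median was further up in MMTV-CAF SG and less far down in MEF KI than that of all marked TSSs. In MMTV-CAF SG the counts did not set the members apart. There 342 of 447 members had a higher fold than in WT, as did 16118 of all 21407 marked TSSs with a region. In MEF KI 18 of 150 members had a higher fold than in WT, a larger share than the 399 of 16606 marked TSSs.

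The change in width was read beside that of all marked TSSs. In MMTV-CAF SG the median log2 width ratio was 0.36 at members and −0.06 over all marked TSSs, and 350 of 447 members had a wider region while 97 had a narrower one. Over all marked TSSs 8387 were wider and 13006 narrower. The mixed TSSs there had a median of 0.12, with 812 wider and 416 narrower. In MEF KI the members' median was −0.57 against −0.31, in MEF SG −0.09 against −0.09 and in Wound SG 0.15 against 0.18. The MMTV-CAF members went from a median of 1038 bp in WT to 1322 bp in SG, and the acetylated TSSs from 3299 to 3081 bp. Members without a region have no ratio, so these medians leave out the weakest ones. Fewer cells with a mark and less of it per cell cannot be told apart in bulk lists.

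H3K27ac appeared near many members in the SG lists. A summit lay within 5 kb of 175 members in MEF SG (32.7%, interval 28.9 to 36.8), 248 in MMTV-CAF SG (46.4%, 42.2 to 50.6) and 123 in Wound SG (23%, 19.6 to 26.7), but of only 15 in MEF KI (2.8%, 1.71 to 4.57). Since members had to lack a summit in WT, any other list could only add. The background was the TSSs marked in all 3 WT lists without a summit in the WT list of the same type, of which 50.3% had one in MEF SG, 52.2% in MMTV-CAF SG, 50.7% in Wound SG and 4.55% in MEF KI. The members' shares lay below it in all 4 lists. That background includes the members, and its other TSSs had H3K27ac in another WT type by definition, so the lower share is read no further. At a fold of at least 4 in every H3K4me3 list, the members' shares were 57.8%, 69.7%, 40.4% and 6.42% of 109 TSSs in MEF SG, MMTV-CAF SG, Wound SG and MEF KI. The background at that fold was 74.1%, 65.1%, 67.9% and 5.25%.

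A list that the selection did not use gives the fairer WT value. For each type the members were chosen again on the other 2 types alone, and both the left-out WT list and the deleted list were read. Chosen without MEF, 799 TSSs had H3K27ac within 5 kb in 16.6% of cases in MEF WT (14.2 to 19.4), 4.88% in MEF KI (3.59 to 6.6) and 37.7% in MEF SG (34.4 to 41.1). Chosen without MMTV-CAF, 1363 TSSs had it in 21.6% in WT (19.5 to 23.9) and 41% in SG (38.4 to 43.6). Chosen without Wound, 634 TSSs had it in 11.5% in WT (9.26 to 14.2) and 29.3% in SG (25.9 to 33).

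The 3 SG lists thus held 21, 19.4 and 17.8 percentage points more than the left-out WT list, and MEF KI 11.8 points less (−11.8). Taken as 3 pairs by type, the SG gain averaged 19.4 ± 1.6 points (SD, n = 3 types), and it was positive in 3 of 3. The exact sign-flip permutation test gave a two-sided p of 0.25, the smallest that 3 pairs allow (0.5 adjusted over the same 2 tests), so this design cannot reach 0.05. The gain was not particular to them. Among TSSs marked in the other 2 types with H3K27ac in 1 of these, the left-out WT list and the SG list had 61% and 79.2% in MEF (18.2 points more), 64.8% and 77.6% in MMTV-CAF (12.9 points) and 46.1% and 70.1% in Wound (24 points), and MEF KI had 18% (−43 points). Over all protein-coding TSSs the shares were 54.4% in WT and 56.4% in SG for MEF, 55.4% and 57.8% for MMTV-CAF and 52.3% and 55.9% for Wound, with 43% in MEF KI. Acetylated TSSs are near the ceiling there, at 99.5% to 99.9% in the SG lists. The differences ran one way at single TSSs. In MEF SG 183 of the 799 TSSs had a summit only in SG and 15 only in WT, in MMTV-CAF SG 290 and 26 of 1363, and in Wound SG 124 and 11 of 634. In MEF KI 17 had a summit only in KI and 111 only in WT.

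With every H3K27ac list cut to the size of the smallest, the SG differences were 19.2, 13.1 and 11.2 points, and with only summits of −log10 p 10 or more they were 19.1, 20.2 and 17.7 points. MEF KI stayed below WT at −8.49 and −15.4 points. These settings were added after the data had been seen. With 1 library per group, library quality and genotype cannot be told apart.

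**Figure D4:**
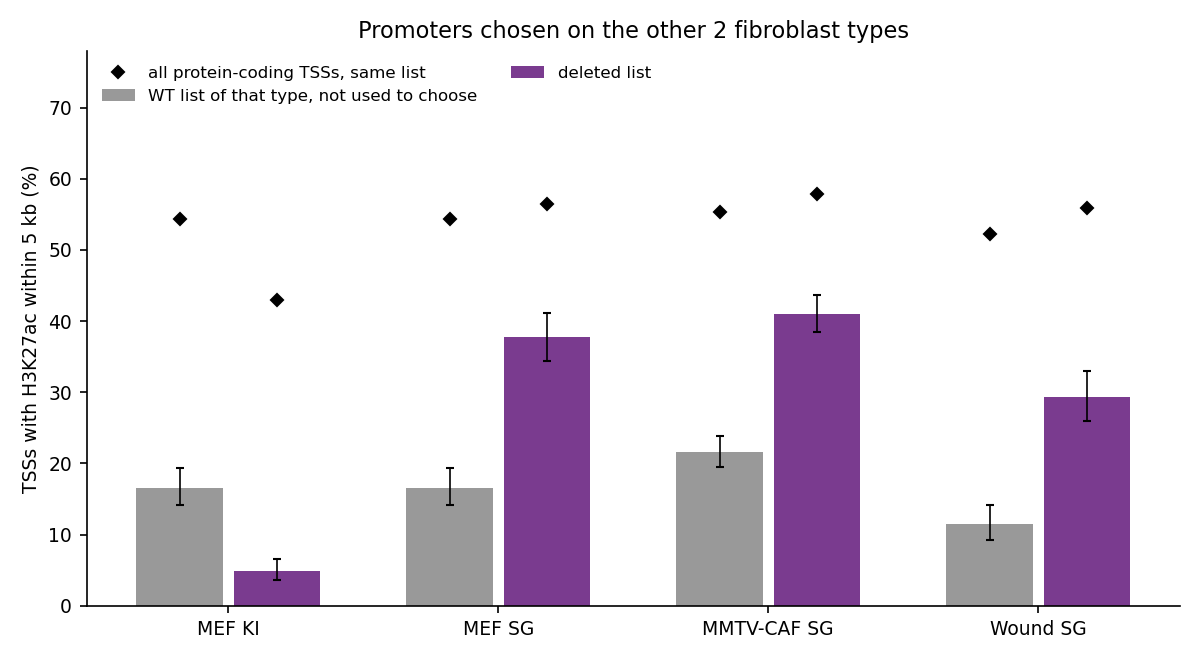
Percentage of TSSs with an H3K27ac summit within 5 kb, for promoters chosen on the other 2 fibroblast types, in the WT list that was left out (grey) and in the deleted list (purple), with Wilson 95% intervals; diamonds show all protein-coding TSSs in the same list. The bars go from 16.6% to 4.88% in MEF KI and from 16.6% to 37.7% in MEF SG, while the diamonds move from 54.4% to 43% and 56.4%.

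The summits at members were close to the TSS and, in the SG lists, weaker than those at acetylated promoters. Their median distance was 216 bp in MEF KI, 192 bp in MEF SG, 219 bp in MMTV-CAF SG and 219 bp in Wound SG, and 92.7% to 100% lay within 1 kb. The median −log10 p was 13.4, 15.3, 15.6 and 11.6 in these lists, whose medians over all summits were 11.9, 21.2, 17.8 and 16.3. Acetylated TSSs had medians of 14.7, 73.4, 65.9 and 48.8, so that the MEF KI summits at members were close in strength to those at acetylated TSSs and above their list's median. Most still passed a −log10 p of 10: 146 of 175 in MEF SG, 217 of 248 in MMTV-CAF SG and 85 of 123 in Wound SG.

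Acetylation in the SG lists went with a higher H3K4me3 fold in WT. Among members above the median WT fold of their type, 49.1% had H3K27ac in the SG list of MEF, 69.9% in that of MMTV-CAF and 33.1% in that of Wound. Among those below it, 16.4%, 23% and 13% did. In MEF KI the shares were 5.24% and 0.373%.

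Members with H3K27ac mostly had H3K4me3 as well. In MEF SG 172 of the 175 members with H3K27ac had H3K4me3 over the TSS, in MMTV-CAF SG 242 of 248, in Wound SG 123 of 123 and in MEF KI 13 of 15. Over all members H3K4me3 was at 79.6%, 83.6%, 94.6% and 28% in these lists, so the Wound SG count is near its background. In MMTV-CAF SG, the median log2 ratio of fold to WT was 0.42 at members with H3K27ac and 0.20 at those without, and that of width 0.48 and 0.19. In Wound SG the fold ratios were 0.26 and 0.13, and in MEF SG 0.16 and 0.04.

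The members with H3K27ac in one SG list can be set beside those in another. Over all 535 members the SG shares were 32.7% for MEF, 46.4% for MMTV-CAF and 23% for Wound. Of the 175 members with H3K27ac in MEF SG, 112 had it in MMTV-CAF SG, which is 64% of the first list and 45.2% of the second. Between MEF SG and Wound SG 79 were shared (45.1% and 64.2%), and between MMTV-CAF SG and Wound SG 81 (32.7% and 65.9%). In all 3 SG lists it was 58 TSSs of 27 genes. On the other side, 200 members had H3K27ac in 0 of the 4 deleted lists. The counts of 58 and 200 were not made over other marked TSSs, so they are not read as high or low.

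The genes with H3K27ac in most deleted lists are known for varied roles. AI118078, an uncharacterised gene, was the only one with a summit in all 4, at 229 bp in MEF KI (−log10 p 13.4), 234 bp in MEF SG (26.9), 232 bp in MMTV-CAF SG (45.4) and 209 bp in Wound SG (14.2). Its nearest WT summits lay 117744, 35109 and 34236 bp away. Its H3K4me3 fold was 4.16, 6.79 and 7.88 in MEF, MMTV-CAF and Wound WT 4.24 in MEF KI, and 5.12, 11.8 and 9.83 in the SG lists of the same types. All 4 deleted values were above the WT value of their type.

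Icosl encodes the ligand of the T cell co-stimulator ICOS. Its summits lay at 135 bp in MEF SG (−log10 p 13.2), 145 bp in MMTV-CAF SG (45.4) and 193 bp in Wound SG (12.1), with 60214 bp to the nearest in MEF KI. Its H3K4me3 fold was 5.55 in MMTV-CAF WT and 12 in SG, 3.44 and 3.51 in MEF and 6.22 and 7.4 in Wound, while MEF KI had no region. Icosl also had a Prrx1 summit 15 bp from its TSS in Wound WT (−log10 p 5.39).

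Map3k5, the stress-activated kinase ASK1, had summits at 482 bp in MEF SG (17.1), 69 bp in MMTV-CAF SG (42.4) and 757 bp in Wound SG (7.36). Its region spanned 2424 bp in MMTV-CAF WT and 4860 bp in SG and was 2156 bp in MEF WT against 2088 bp in MEF SG. Ogdhl, a 2-oxoglutarate dehydrogenase-like enzyme, had its strongest summit in MEF SG (142 bp, 34.5) and others in MMTV-CAF SG (155 bp, 12.6) and Wound SG (138 bp, 14.2). Irf5, an interferon regulatory factor, had summits at 286 bp in MEF SG (25), 368 bp in MMTV-CAF SG (33.5) and 300 bp in Wound SG (8.87). Hey1, a Notch target and repressor, differed from these: it had summits in MEF KI (738 bp, 10.3), MEF SG (728 bp, 19.1) and MMTV-CAF SG (163 bp, 32.2), and none nearer than 199113 bp in Wound SG.

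Among the members with the highest H3K4me3 fold, acetylation in the SG lists was common. Trim62, a RING-type ubiquitin ligase, had WT folds of 4.42, 8.82 and 9.71 and summits in MEF SG (187 bp, 19.1), MMTV-CAF SG (196 bp, 12.6) and Wound SG (296 bp, 11.4). Gch1, the rate-limiting enzyme of tetrahydrobiopterin synthesis, had folds of 5.38, 9.18 and 7.4 and summits in MMTV-CAF SG (375 bp, 26.8) and Wound SG (313 bp, 17.1). Rasgef1b, an exchange factor for Ras-family proteins, had folds of 4.56, 9.76 and 8.17 and summits in all 3 SG lists, at 190, 218 and 355 bp.

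Atoh8, a basic helix-loop-helix factor, had the strongest summit of any member, with a −log10 p of 86.4 at 973 bp in MMTV-CAF SG. There its region went from 3077 bp at 7.29-fold in WT to 4573 bp at 14-fold. In MEF SG it had a summit at 157 bp (15.5), while in Wound SG the nearest was at 7647 bp and in MEF KI it had no H3K4me3. Chn1, a Rac GTPase-activating protein, had WT folds of 5.19, 8.54 and 6.86 and no summit within 5 kb in any deleted list. Npnt, the matrix protein nephronectin, had a summit in MMTV-CAF SG alone (73 bp, 11.7), and Ap1s3, a subunit of the AP-1 clathrin adaptor, in MMTV-CAF SG (125 bp, 6.43) and Wound SG (172 bp, 10.6).

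By the median width over the 3 WT lists, the widest members were Pappa, Slc30a3, Sfmbt2, Atoh8 and Kcnh3. Pappa, a protease that cleaves IGF-binding proteins, went against the KI pattern. Its fold in MEF was 4.09 with WT, 4.65 with KI and 3.23 with SG cells, its width 2889, 3582 and 2196 bp, and of the deleted lists only MEF KI had a summit near it (122 bp, 12.4). In MMTV-CAF SG it had no H3K4me3. Sfmbt2, a Polycomb group protein, had widths of 2784, 656 and 3153 bp in the WT lists and summits in MEF SG (465 bp, 14.4) and Wound SG (2388 bp, 8.87). Slc30a3, the zinc transporter of synaptic vesicles, had 790, 2790 and 2948 bp in WT and no summit within 5 kb in any deleted list.

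**Figure D5:**
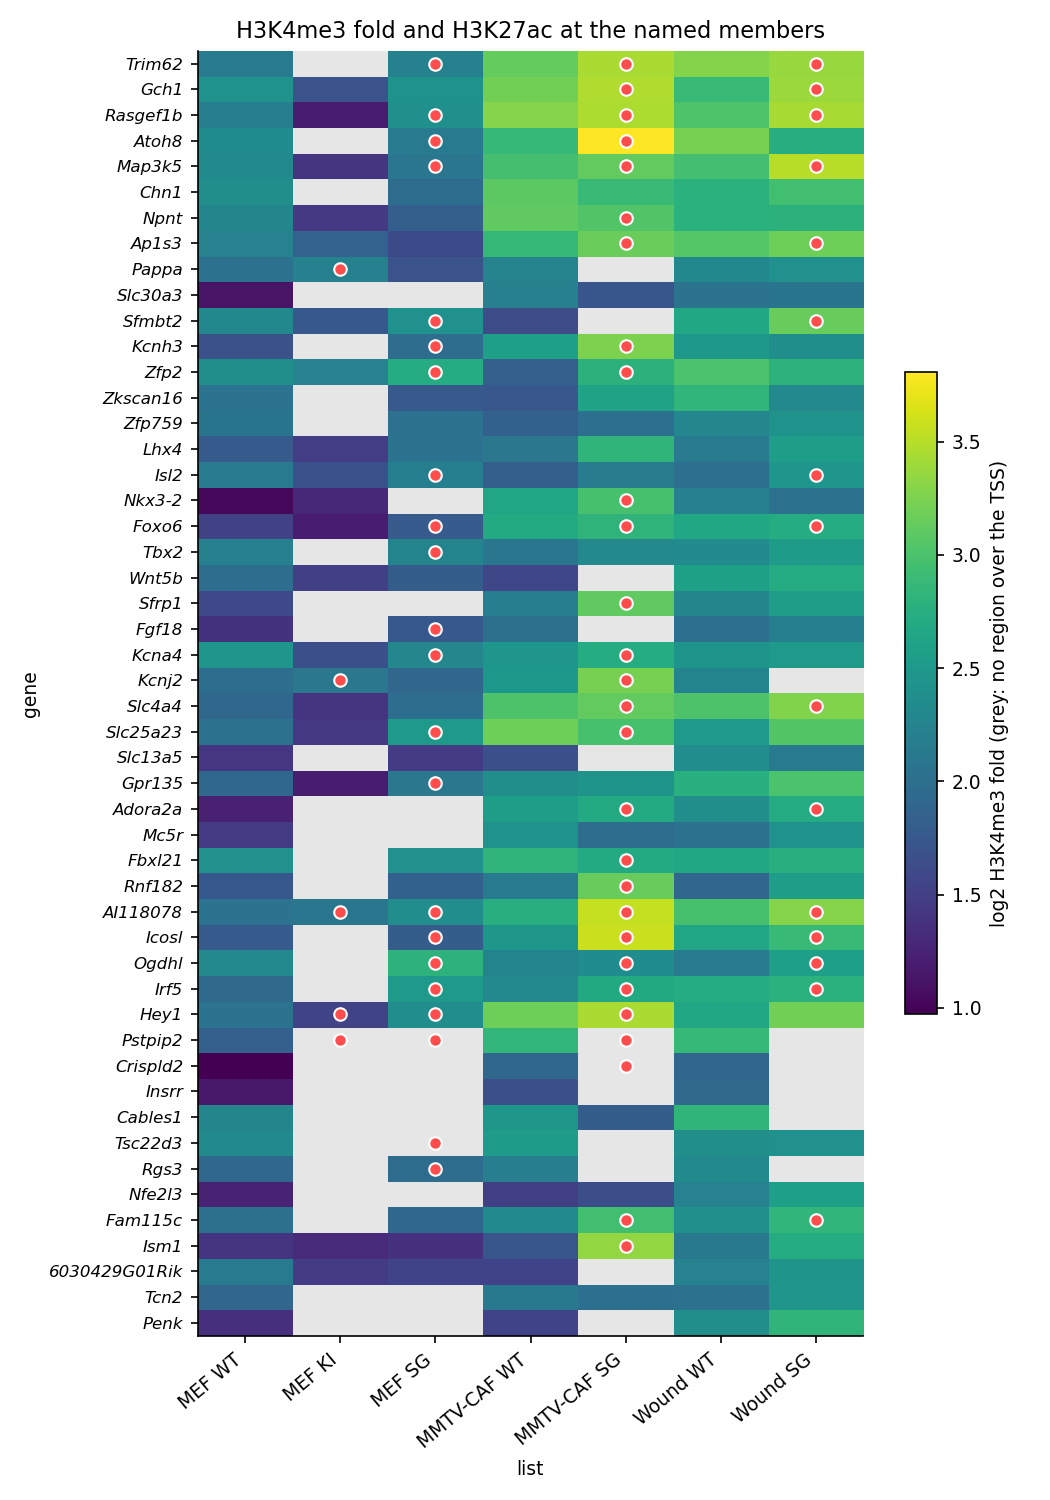
Log2 H3K4me3 fold at the named members (rows) in the 7 lists (columns), with grey where no region covered the TSS and a red dot where an H3K27ac summit lay within 5 kb. The WT columns have no dots because the members were chosen so; AI118078 alone has dots in all 4 deleted lists, and grey is most frequent in MEF KI, where 385 of 535 members had no region.

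Of the 8 homeobox genes, 4 had H3K4me3 in MEF KI, 7 in the SG list of MEF, 7 in that of MMTV-CAF and 8 in that of Wound, and H3K27ac was near 0, 4, 3 and 1 of them. Over all 334 member genes, H3K4me3 was found at 101, 265, 271 and 317, and H3K27ac at 10, 105, 143 and 72, that is, H3K27ac at 2.99% in MEF KI and, for the SG lists, 31.4% with MEF, 42.8% with MMTV-CAF and 21.6% with Wound cells. The homeobox counts are too small to set apart from these, and so are those of the other families described next, of 4 to 10 genes each.

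Isl2, a LIM-homeobox gene of motor neurons, had WT folds of 4.42, 3.55 and 4.03 and summits in MEF SG (126 bp, 15.6) and Wound SG (604 bp, 7.27). Nkx3-2, a homeobox repressor that acts in cartilage, had WT folds of 2.05, 6.24 and 4.61 and a summit 11 bp from its TSS in MMTV-CAF SG (25.8). Lhx4, a factor of the pituitary, had a region in all 7 lists, from 2.81-fold in MEF KI to 7.11-fold in MMTV-CAF SG, and no summit in any. These genes had the mark throughout or nearly so and differed in where acetylation was listed.

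Of the 4 other developmental factors, 3 had H3K27ac in MEF SG, 3 in MMTV-CAF SG, 1 in Wound SG and 0 in MEF KI, beside 31.4%, 42.8%, 21.6% and 2.99% of all member genes, and 4 genes are too few to compare. Tbx2, a T-box repressor, had it in MEF SG alone (103 bp, 15.2), with folds of 4.62, 4.24 and 5.07 in WT. Foxo6, a forkhead factor of the brain, had it in MMTV-CAF SG at 129 bp (18.9) and near the edge of the limit in MEF SG (4570 bp, 16) and Wound SG (4489 bp, 10.6).

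Of the 5 secreted signals, 3 had H3K27ac in MMTV-CAF SG, 1 in MEF SG and none in Wound SG or MEF KI (0 each), beside 42.8%, 31.4%, 21.6% and 2.99% of all member genes. Sfrp1, a secreted Wnt inhibitor, had no H3K4me3 in either deleted MEF list. In MMTV-CAF it went from 4.55-fold and 1566 bp in WT to 8.66-fold and 3572 bp in SG, with a summit at 231 bp (28.9). Fgf18, a growth factor of bone and cartilage, had no region in MEF KI and MMTV-CAF SG and had a weak summit in MEF SG (1496 bp, 6.02). Wnt5b, a Wnt ligand, had no region in MMTV-CAF SG and no summit in any deleted list.

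Of the 10 neuronal genes, H3K27ac was near 4 in MMTV-CAF SG, 2 in MEF SG, 2 in Wound SG and 1 in MEF KI. These are 40%, 20%, 20% and 10%, beside 42.8%, 31.4%, 21.6% and 2.99% of all member genes, and nothing particular to neuronal genes is read from them. Kcnj2, an inward rectifier channel, had the widest member region of MMTV-CAF SG. It spanned 2202 bp at 5.61-fold in WT and 5994 bp at 9.34-fold in SG, with a summit at 208 bp (45.9), and it had no region in Wound SG. In MEF KI its fold was 4.29 against 3.98 in WT, with a summit at 915 bp (12.7). Kcna4, a voltage-gated potassium channel, had nearly the same fold in the WT lists (5.51, 5.5 and 5.41) and summits in MEF SG (229 bp, 12.8) and MMTV-CAF SG (155 bp, 9.34). Kcnh3, another voltage-gated channel, had summits in the same lists, at 499 bp (12.8) and 482 bp (27.9).

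The 7 solute carriers had H3K27ac near 1 in MEF SG, 4 in MMTV-CAF SG, 1 in Wound SG and 0 in MEF KI, beside 31.4%, 42.8%, 21.6% and 2.99% of all member genes. Slc4a4, a sodium bicarbonate cotransporter, had it in MMTV-CAF SG (101 bp, 28.8) and Wound SG (88 bp, 12.5), and Slc25a23, a mitochondrial carrier, in MEF SG (32 bp, 20.7) and MMTV-CAF SG (339 bp, 10.9). Slc13a5, the citrate transporter, had none. Of the 5 members in the receptor list, Gpr135 had a summit in MEF SG (274 bp, 10.5) and the adenosine receptor Adora2a in MMTV-CAF SG (419 bp, 20.8) and Wound SG (409 bp, 10.6), while the melanocortin receptor Mc5r had none.

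The 4 ubiquitin pathway genes all had H3K27ac in MMTV-CAF SG, and 1 did in MEF SG and in Wound SG. Over all member genes it was 143 of 334 (42.8%) in MMTV-CAF SG, and a family of 4 is too small to set apart from that. Besides Trim62 these include Rnf182, whose fold was 4.42 in MMTV-CAF WT and 8.85 in SG with a summit at 326 bp (30), and Fbxl21, an F-box protein of the circadian clock (198 bp, 9.34). The 6 zinc finger genes had H3K4me3 in 2 cases in MEF KI and in 6, 5 and 6 in the SG lists of MEF, MMTV-CAF and Wound. Zfp2 had summits in MEF SG (187 bp, 29.4) and MMTV-CAF SG (254 bp, 7.84), and Zkscan16 and Zfp759 had none in any deleted list.

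Prrx1 summits were rare at the members. A summit lay within 5 kb of 11 members in MMTV-CAF (2.06%), 7 in Wound (1.31%) and 3 in MEF (0.561%). Over all TSSs marked in the 3 WT lists the shares were 18.8%, 15% and 1.88%, and over all protein-coding TSSs 11%, 8.58% and 1.46%. The members lay below both in MMTV-CAF and Wound. In MEF the share rests on 3 TSSs, with a Wilson interval of 0.191 to 1.64%. That interval holds the share of all protein-coding TSSs and ends below that of the marked ones. Within 1 kb the counts were 8 (1.5%), 4 (0.748%) and 0 in MMTV-CAF, Wound and MEF. The shares there were 13%, 10.6% and 0.698% over all marked TSSs and 6.65%, 5.39% and 0.443% over all protein-coding TSSs. The 0 of 535 in MEF carries a Wilson upper bound of 0.713%. That bound lies above both MEF backgrounds, so the 0 is not set apart from them.

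The strongest of these summits lay near Nfe2l3, a CNC-family transcription factor, at 2523 bp in MEF (−log10 p 30.9) and 2553 bp in Wound (20). Fam115c had one at 182 bp in MMTV-CAF (11.6), and H3K27ac summits in MMTV-CAF SG at 117 bp (13.4) and in Wound SG at 363 bp (15.1). Ism1, a secreted protein, had one at 1634 bp in Wound (8.31), and its H3K4me3 fold was 3.32 in MMTV-CAF WT and 10.2 in SG. The others named were 6030429G01Rik (2907 bp, 8.2 in MEF), Tcn2 (979 bp, 7.82 in MMTV-CAF) and the opioid precursor Penk (331 bp, 7.3 in Wound), none of which had H3K27ac within 5 kb in a deleted list.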

How the data were processed

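The series holds 24 samples of 3 fibroblast types, and 17 peak lists, 1 per ChIP library, were analysed without the 7 inputs. Upstream, the authors used Trimmomatic for trimming, Bowtie for alignment to mm9, and MACS2 for peaks over input after duplicate removal. For H3K27ac and Prrx1, what was deposited is a 1-bp summit per peak and its −log10 p. For H3K4me3 it is a broad region, and per the file columns the authors deposited its fold over input (a ratio), −log10 p, −log10 q and a score. A broad call at low enrichment can end at or split beside a TSS, so coverage of a TSS depends on the call. The study describes Prrx1 ChIP in duplicate, and whether a Prrx1 list pools them is not stated. Library totals are not part of the lists, so depth is unknown.

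Groups came from sample titles. TSSs were the distinct starts of protein-coding transcripts in GENCODE vM1 on NCBIM37, the assembly of mm9, and sequences came from it. Summits were counted within 5 kb and H3K4me3 regions had to cover the TSS. Shares carry Wilson 95% intervals, over TSSs that can share regions. Named genes were the 8 of highest geometric mean WT fold, the 5 widest, 3 per family with 3 or more members, the 6 with H3K27ac in most and the 6 with H3K4me3 in fewest deleted lists, the 6 strongest Prrx1 summits and TSSs beside the limit. A gene is represented by its member TSS of highest WT fold. The members, families and rules were chosen with earlier results of these data known. Matching was tested on simulated intervals. Alternatives were limits of 2 and 10 kb, −log10 p of 10, fold of 4, equal list sizes, 1 TSS per gene, H3K4me3 within 1 kb and each WT type left out. The left-out comparison for TSSs with H3K27ac in 1 other type and the exact sign-flip permutation test of SG minus WT over the 3 types were added after seeing the data. Python 3.11.15, numpy 2.4.6, pandas 2.3.3 and matplotlib 3.10.9 were used.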

Additional observations from a re-analysis of the deposited data

Results flagged for a closer look

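The difference between a deleted list and the left-out WT list of its type took opposite signs in different deleted lists, and the contrast between them was not tested. For H3K27ac within 5 kb of promoters chosen on the other types, it was −11.8 percentage points in MEF KI and, in the SG lists, 21 for MEF, 19.4 for MMTV-CAF and 17.8 for Wound. The MEF KI list had the fewest H3K27ac summits of the 7 (29325), and its part in the result was examined only by cutting all lists to that size.

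The median log2 width ratio of the H3K4me3 region at members, less that of all marked TSSs, was −0.26 in MEF KI and 0.42 in MMTV-CAF SG, with 1 library each and no test of the difference. The MEF KI value rests on 150 members and the MMTV-CAF SG value on 447.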

How the results depend on the processing

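Of 98 alternative values, 62 stayed within the limit set for them (1.5 times the count, or the Wilson interval of the share), 36 moved beyond it, and the 4 differences between deleted and left-out WT lists kept their sign in each setting tried. The number of promoters was 535, but 109 with an H3K4me3 fold of at least 4, 840 with H3K27ac lists of equal size, 266 with 1 TSS per gene, 879 with H3K4me3 within 1 kb of the TSS, and 634 to 1363 with a WT type left out. With a fold of at least 4, H3K4me3 was listed at 90.8% of members in MMTV-CAF SG, 64.2% in MEF SG and 7.34% in MEF KI, and H3K27ac at 6.42% in MEF KI and 57.8%, 69.7% and 40.4% in the SG lists of MEF, MMTV-CAF and Wound. With equal H3K27ac lists, H3K4me3 was at 36% in MEF KI and 87.1% in MMTV-CAF SG, and H3K27ac at 31.4% in MMTV-CAF SG and 17.7% in Wound SG. With H3K4me3 within 1 kb, that mark was at 39.5%, 86% and 98.1% in MEF KI, MEF SG and Wound SG, and H3K27ac at 28.2% in MEF SG and 40.6% in MMTV-CAF SG. With a WT type left out, the SG lists had H3K4me3 at 70.8% to 79.5% (MEF), 62.8% to 83.6% (MMTV-CAF) and 91.6% to 92.9% (Wound) and H3K27ac at 32.2% to 37.7% (MEF), 41% to 48.4% (MMTV-CAF) and 27.2% to 29.3% (Wound), while MEF KI had H3K27ac at 2.71% to 4.88%. The difference from the left-out WT list was −8.49, 13.1 and 11.2 points in MEF KI, MMTV-CAF SG and Wound SG with equal lists, and −15.4 points in MEF KI at a −log10 p of 10 or more, 2 settings chosen after seeing the data. The cause of these shifts was not tested, beyond the change in which TSSs qualify.

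Each group has 1 list of unknown depth, so a missing peak can mean a weak library, and broad regions can end short of a TSS. H3K27ac lists give no width. Shares count TSSs that share regions, so their intervals are too narrow. The labels give no replicate numbers that groups share, so the pairing by fibroblast type, chosen after seeing the data, was the one available; it sets 1 library against 1 in each pair.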
